A study of Homo sapiens with 6 samples.

Results

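The ligands by which a cell is seen by natural killer (NK) cells were followed in HT1080, an established human fibrosarcoma line. They are 9 genes of the 62710 in the deposited table, taken by their Ensembl identifiers from a list of symbols. The list was chosen with earlier results of these data known. MICA, MICB, ULBP1, ULBP2, ULBP3 and RAET1G encode ligands of the receptor NKG2D, PVR and NECTIN2 encode ligands of DNAM-1, and NCR3LG1 encodes B7-H6, a ligand of NKp30. The cells were untreated (3 libraries) or had received human IFNβ at 20 ng/mL for 24 h (3 libraries), in the same serum-containing high-glucose medium. The source of the cytokine is given as human in the sample labels and, for this line, in the cell culture methods, and as mouse in the methods of the sequencing experiment. All values come from 1 cell line. Independent biological replicates are stated for the in vitro work in general, and the labels do not give the culture of each library.

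NK cells are lymphocytes that kill without prior antigen exposure, and they weigh activating against inhibitory signals from the surface of the target. NKG2D recognises MHC class I-like proteins that healthy cells display sparsely and that stress, DNA damage or transformation can induce. DNAM-1 recognises PVR (CD155) and NECTIN2 (CD112), adhesion molecules of the nectin family, which are also bound by the inhibitory receptors TIGIT, CD96 and PVRIG. NKp30 recognises B7-H6, which is found mainly on tumor cells. IFNβ is itself an inducer of NK cell activity and of the HLA class I molecules that restrain NK cells.

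The promoters of the 5 ligand genes that rose, and of MICB, the close relative of MICA, are shown as the RefSeq windows from 250 bases before to 50 bases after the transcription start (GRCh38.p14), since they let a reader compare genes that moved with a paralog that was not called. All 9 genes matched the RefSeq table. The windows were searched on both strands for the core of the interferon-stimulated response element (GAAA, any 2 bases, GAAA), TTCNNNGAA (the site of STAT dimers), GAANNTTC (an inverted repeat of heat shock elements) and CACGTG (the E-box), and matches are in capitals. Each is printed 5′ to 3′ on the strand of its gene.
MICA, chr6:31403345-31403644, plus strand: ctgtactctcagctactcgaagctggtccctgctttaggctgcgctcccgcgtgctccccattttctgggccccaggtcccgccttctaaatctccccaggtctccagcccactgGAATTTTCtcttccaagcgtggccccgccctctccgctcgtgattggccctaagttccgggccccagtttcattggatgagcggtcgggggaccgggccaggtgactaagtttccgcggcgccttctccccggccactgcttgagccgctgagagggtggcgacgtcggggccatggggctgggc
MICB, chr6:31497895-31498194, plus strand: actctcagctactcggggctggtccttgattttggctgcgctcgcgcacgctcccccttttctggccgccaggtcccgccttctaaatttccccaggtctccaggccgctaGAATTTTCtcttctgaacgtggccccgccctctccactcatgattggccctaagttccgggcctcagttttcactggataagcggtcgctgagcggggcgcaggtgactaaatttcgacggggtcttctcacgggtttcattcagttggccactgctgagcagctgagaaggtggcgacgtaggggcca
ULBP2, chr6:149941764-149942063, plus strand: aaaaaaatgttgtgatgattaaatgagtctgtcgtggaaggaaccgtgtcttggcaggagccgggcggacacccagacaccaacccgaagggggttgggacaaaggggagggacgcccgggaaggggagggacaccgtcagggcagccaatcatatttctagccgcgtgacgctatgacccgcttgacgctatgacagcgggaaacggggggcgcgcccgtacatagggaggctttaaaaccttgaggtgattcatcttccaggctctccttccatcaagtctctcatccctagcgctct
RAET1G, chr6:149923072-149923371, minus strand: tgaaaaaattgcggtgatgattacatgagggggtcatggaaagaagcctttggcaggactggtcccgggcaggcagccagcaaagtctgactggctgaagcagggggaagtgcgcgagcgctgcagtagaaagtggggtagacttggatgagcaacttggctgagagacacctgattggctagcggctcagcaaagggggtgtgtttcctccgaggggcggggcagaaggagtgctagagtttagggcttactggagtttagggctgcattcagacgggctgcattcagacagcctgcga
PVR, chr19:44643660-44643959, plus strand: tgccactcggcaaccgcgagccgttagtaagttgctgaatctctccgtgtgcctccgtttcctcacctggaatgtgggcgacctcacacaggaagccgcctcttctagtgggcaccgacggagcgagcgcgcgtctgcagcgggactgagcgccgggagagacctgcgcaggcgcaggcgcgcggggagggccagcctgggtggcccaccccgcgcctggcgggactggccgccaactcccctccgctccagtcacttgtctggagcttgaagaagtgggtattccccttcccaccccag
NECTIN2, chr19:44846047-44846346, plus strand: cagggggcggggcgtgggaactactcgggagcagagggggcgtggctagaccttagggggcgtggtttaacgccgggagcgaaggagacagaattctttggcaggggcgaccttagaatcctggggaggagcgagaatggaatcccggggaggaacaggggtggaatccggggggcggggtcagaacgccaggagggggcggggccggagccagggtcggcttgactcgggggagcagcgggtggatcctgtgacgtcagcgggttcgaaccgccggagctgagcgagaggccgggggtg

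Of the 9 windows, only those of MICA and MICB held any of the 4 motifs, and both held the same heat shock inverted repeat. It lay from -135 to -128 relative to the start of MICA and from -139 to -132 relative to that of MICB, and since the pattern is its own reverse complement the match has the same position on either strand. GAANNTTC was found in 6.77% of all 35116 RefSeq windows of this length. The core of the interferon-stimulated response element was found in 3.57%, TTCNNNGAA in 7.66% and CACGTG in 7.26%. A window without a match shows only that these letters are not in these 300 bases. RAET1E, an NKG2D ligand gene outside the 9 that also rose, was searched in the same way. It held CACGTG from -105 to -100 and, in the window of another of its starts, TTCTTTGAA from -165 to -157. In a global alignment, 78.2% of the columns were identical between the windows of MICA and MICB, against 49.0% between those of PVR and NECTIN2. The main MICA start of RefSeq lies downstream of the 5′ end that GENCODE release 29 gives the gene.

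The values are FPKM, the authors' fragments scaled by gene length and library total, and each gene's values were whole multiples of the value of 1 fragment. The libraries had been divided by 22848104 to 32915500 fragments, and a gene of 1 kb at 1 fragment has 0.0304 to 0.0438 FPKM. Where a gene length was not that of GENCODE release 29, the fragments given are the lowest integers that fit its FPKM. The treated group was set against the untreated one with limma, using log2(FPKM + 0.1) of the 20716 genes whose mean reached 0.1 FPKM, and a gene was said to rise or fall when its Benjamini-Hochberg adjusted p-value was under 0.05. The added 0.1 shrinks the fold changes of low genes. Means are given ± S.D. of 3 libraries (n = 3) and fold changes with their standard error (SE). The treatment was visible in the 6 interferon-stimulated genes fixed as a check, all of which rose, with IFIT1 at 0.916 ± 0.0380 FPKM untreated and 413 ± 3.30 FPKM after IFNβ.

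Markers of the cell line were in place and those of NK cells were not. The 6 mesenchymal markers summed to 1664 to 1728 FPKM untreated and 1646 to 1708 FPKM after IFNβ. Of these, FN1, SPARC and CAV1 rose (log2 fold changes 0.51, 0.32 and 0.25), VIM and LGALS1 fell (-0.29 and -0.14), and S100A6 was not called. Of 13 NK and T cell genes, which include the receptors of the ligands, none was above 0.142 FPKM in any library. Their summed level was 0.357 to 0.425 FPKM untreated and 0.292 to 0.409 FPKM after IFNβ. HCST, the signalling partner of NKG2D, was listed at 0 in every library, and KLRK1, which encodes NKG2D, in every library but IFNβ replicate 3. The summed epithelial markers reached 0.0684 FPKM and the summed endothelial markers 0.441 FPKM at most. In such bulk libraries, fewer expressing cells and less RNA per cell cannot be told apart.

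Of the 9 ligand genes, 8 passed the filter on low values, also by their untreated mean alone, and ULBP1 did not. Of these 8, 5 rose (NECTIN2, RAET1G, ULBP2, MICA and PVR), none fell, and MICB, ULBP3 and NCR3LG1 were not called. Over all genes tested, 32.7% were called by the same rule, 15.2% higher and 17.5% lower. Of the 8, 2 (NECTIN2 and RAET1G) also had a log2 fold change of at least 1, against 3.49% of all genes, and none had one of -1 or less, against 0.739% (4.22% in either direction). RAET1G did not meet this second threshold with a pseudocount of 1. The median log2 fold change of the 8 was 0.376, against 0 over all genes. In 5 of the 8 the treated libraries lay entirely above the untreated ones, which held for 22.3% of all genes, and in none entirely below, against 24.3% of all genes. The 9 genes were chosen with earlier results of these data known, so these comparisons with all genes are descriptive.

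**Figure D1:**
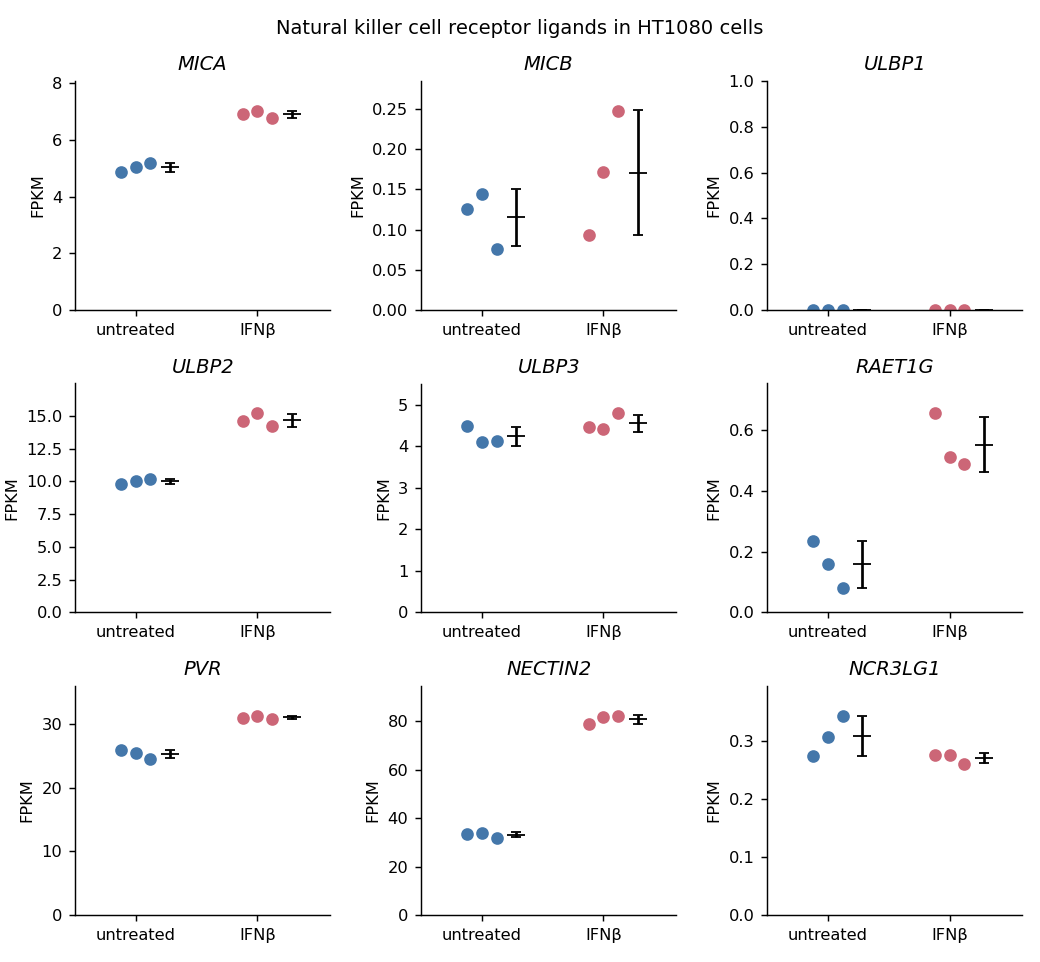
FPKM of each ligand gene in the 3 untreated (blue) and 3 IFNβ-treated (red) libraries, with the group mean and S.D. in black, on axes that start at 0 and differ between panels. The groups are apart for MICA, ULBP2, RAET1G, PVR and NECTIN2, they overlap for MICB, ULBP3 and NCR3LG1, and ULBP1 is at 0 throughout.

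The DNAM-1 ligands were the most abundant of the 9 and both rose. NECTIN2 (ENSG00000130202), a cell adhesion molecule of the nectin family on chromosome 19 from 44846175 to 44889228 (GENCODE release 29, GRCh38), was at 33.5, 33.9 and 31.9 FPKM in the untreated libraries and at 78.8, 81.7 and 82.3 FPKM after IFNβ. Every treated library was more than 2 times any untreated one. The mean rose from 33.1 ± 1.05 to 80.9 ± 1.86 FPKM, 2.44 times, with a log2 fold change of 1.29 (SE 0.03, with adjusted p = 8.6e-07 in limma). It rested on 2863 to 3932 fragments per untreated library and 7635 to 9082 per treated library. Among all genes tested, 3.60% had a larger rise.

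PVR (ENSG00000073008), the poliovirus receptor, lies upstream of NECTIN2 on the same strand, from 44643798 to 44663583, with 182.6 kb between them. It was at 25.9, 25.5 and 24.5 FPKM untreated and at 31.0, 31.3 and 30.8 FPKM after IFNβ, so the groups did not overlap but lay close. The mean was 1.23 times higher after IFNβ, with a log2 fold change of 0.30 (SE 0.03, 95% confidence interval 0.24 to 0.36, with adjusted p = 2.7e-04 in limma). A larger rise was found in 22.9% of all genes tested. PVR had 6159 to 9956 fragments per library.

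The 2 DNAM-1 ligands did not move in proportion. Within a library, the ratio of NECTIN2 to PVR FPKM was 1.30, 1.33 and 1.30 untreated and 2.54, 2.61 and 2.67 after IFNβ. This is a difference of 0.99 on the log2 scale, and the groups did not overlap. In an exact two-sided permutation test of the 3 ratios examined between ligand genes, p was 0.10 (adjusted 0.10), the smallest that 3 libraries against 3 can give. The ratios were not among the comparisons set out beforehand. The level of the ratio depends on the gene length, whereas its change does not. The deposited FPKM of PVR imply a length of 10427 bases, against 3519 exonic bases in GENCODE release 29, and with the latter PVR would be at 74.9 FPKM untreated, above NECTIN2 at 33.1 FPKM.

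Among the NKG2D ligands, ULBP2, MICA and RAET1G rose. ULBP2 (ENSG00000131015), a ligand anchored to the membrane by a lipid, on chromosome 6 from 149942000 to 149949235, was at 9.80, 10.0 and 10.2 FPKM untreated and at 14.6, 15.2 and 14.2 FPKM after IFNβ. The lowest treated library was well above the highest untreated one. The log2 fold change was 0.55 (SE 0.03, with adjusted p = 6.9e-05 in limma), a mean 1.47 times higher, from 299 to 448 fragments untreated and 507 to 600 after IFNβ. ULBP2 shares 4.25% of its 150-base windows with RAET1L, which had at most 6 fragments in any library.

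MICA (ENSG00000204520), a stress-inducible MHC class I-like protein encoded beside HLA-B from 31399784 to 31415315 on chromosome 6, was at 4.86, 5.06 and 5.18 FPKM untreated and at 6.92, 7.03 and 6.79 FPKM after IFNβ. The groups were again apart. The mean rose from 5.04 ± 0.161 to 6.91 ± 0.121 FPKM, a log2 fold change of 0.45 (SE 0.04, with adjusted p = 2.3e-04 in limma). The ratio of ULBP2 to MICA was 2.02, 1.98 and 1.97 untreated and 2.11, 2.16 and 2.09 after IFNβ, a difference of 0.09 on the log2 scale (exact permutation p = 0.10, two-sided), small but without overlap.

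RAET1G (ENSG00000203722), also called ULBP5, on chromosome 6 from 149916878 to 149923121, was low in every library. It was at 0.236, 0.159 and 0.0818 FPKM untreated, from 8, 7 and 4 fragments, and at 0.656, 0.512 and 0.489 FPKM after IFNβ, from 30, 19 and 21 fragments. The lowest treated library was above the highest untreated one by a factor of more than 2. The mean was 3.48 times higher, and the log2 fold change was 1.37 (SE 0.27, 95% confidence interval 0.71 to 2.03, with adjusted p = 0.010 in limma). With a pseudocount of 1 in place of 0.1 the log2 fold change was 0.42 and with 0.01 it was 1.84, and both remained called. None of its 150-base windows occurs in the other genes of the family. RAET1G shares 138 exonic bases with the antisense gene RAET1E-AS1. An entry of the antisense gene was listed at 0 in the untreated libraries and at 0.0537, 0.0662 and 0 FPKM after IFNβ. Another entry was at 0 throughout. The part of RAET1G fragments in these values was not tested.

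The other 3 NKG2D ligand genes were not called. ULBP3 (ENSG00000131019), from 150063150 to 150069095 at the far end of the same cluster, was at 4.50, 4.09 and 4.12 FPKM untreated and at 4.46, 4.41 and 4.79 FPKM after IFNβ. Untreated replicate 1 lay within the treated range. The log2 fold change was 0.10 (SE 0.06, with adjusted p = 0.22 in limma), with a 95% confidence interval from -0.03 to 0.24 that lies below the estimates of ULBP2 and MICA. The ratio of ULBP2 to ULBP3 was 2.18, 2.45 and 2.47 untreated and 3.27, 3.44 and 2.96 after IFNβ, with no overlap (exact permutation p = 0.10, two-sided).

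MICB (ENSG00000204516), the paralog of MICA 79.6 kb away on the same strand, from 31494881 to 31511124, was at 0.125, 0.145 and 0.0760 FPKM untreated and at 0.0929, 0.172 and 0.247 FPKM after IFNβ. These are 8, 12 and 7 against 8, 12 and 20 fragments, and the groups overlap. Its log2 fold change of 0.30 had a 95% confidence interval from -0.46 to 1.07 (limma adjusted p = 0.53), which holds both 0 and the estimate of MICA. No 150-base window is common to the transcripts of MICA and MICB in GENCODE release 29. In the untreated libraries MICA was at 5.04 FPKM and MICB at 0.115 FPKM.

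ULBP1 (ENSG00000111981), between ULBP2 and ULBP3 from 149964007 to 149973710, was listed at 0 in all 6 libraries. With its exon length of 3142 bases in release 29, 3 fragments would be 0.0290 to 0.0418 FPKM, which is the level a count of 0 allows. Being listed at 0 in every library was shared with 14.2% of protein-coding genes, and with none of 10 housekeeping genes. No fold change can be given.

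NCR3LG1 (ENSG00000188211), on chromosome 11 from 17351726 to 17377341, was at 0.275, 0.307 and 0.344 FPKM untreated and at 0.276, 0.277 and 0.261 FPKM after IFNβ. The treated libraries lay at the lower edge of the untreated range and overlapped it. Its log2 fold change was -0.14 with a 95% confidence interval from -0.55 to 0.28 (limma adjusted p = 0.61). The library counts of 20 to 36 fragments are the smallest whole numbers and could be a multiple of these, because the implied length of 3182 bases is about 0.494 of the exon length in release 29.

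**Figure D2:**
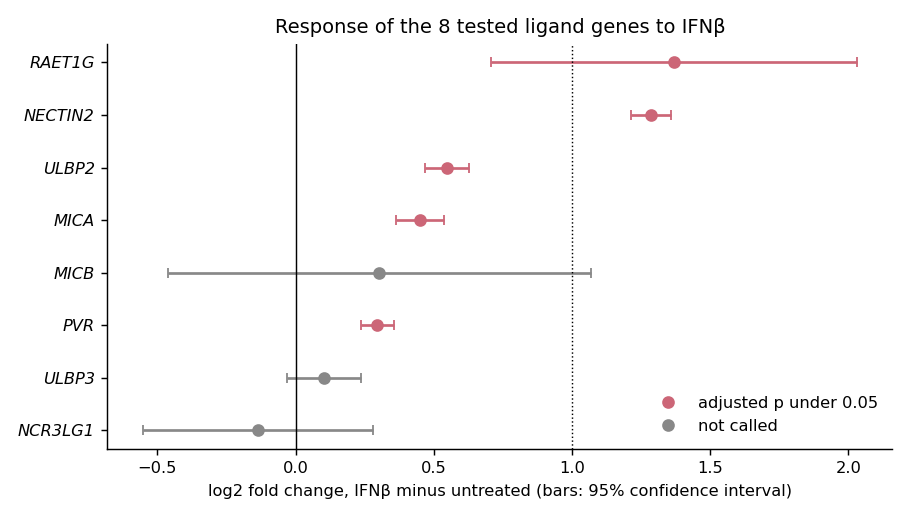
Log2 fold change (IFNβ minus untreated, limma on log2(FPKM + 0.1)) of the 8 tested ligand genes with 95% confidence intervals; red points have an adjusted p-value under 0.05. RAET1G at 1.37 and NECTIN2 at 1.29 lie past the dotted line at 1, but the interval of RAET1G runs from 0.71 to 2.03.

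Among themselves, the ligand genes differed far more in level than in response. By untreated mean FPKM the order was NECTIN2 (33.1), PVR (25.3), ULBP2 (10.0), MICA (5.04), ULBP3 (4.24), NCR3LG1 (0.309), RAET1G (0.159) and MICB (0.115), with ULBP1 at 0. Of the neighbours in this order, RAET1G and MICB overlapped and the others did not. After IFNβ, RAET1G (0.552 FPKM) stood above NCR3LG1 (0.271 FPKM) and the rest kept their order. With the exon lengths of release 29 and the smallest whole numbers of fragments, RAET1G (0.159) was already above NCR3LG1 (0.153) untreated. The fragments of NCR3LG1 are known only up to a multiple, so its place with these lengths is not settled. With these lengths 2 other places changed after IFNβ, where ULBP2 (14.5) stood above ULBP3 (14.3) and, under the same limit, MICB (0.171) above NCR3LG1 (0.134). With the exon lengths of release 29 the untreated order began with PVR (74.9), NECTIN2 (33.1), ULBP3 (13.3), ULBP2 (9.90) and MICA (8.13), so comparisons of levels between these genes depend on the annotation.

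The summed FPKM of the 6 NKG2D ligand genes was 19.5 to 19.7 in the untreated libraries and 26.5 to 27.3 after IFNβ. ULBP2 made up 51.2% ± 0.871 of it untreated and 54.6% ± 1.04 after IFNβ. The mean share of MICA was 25.7% in both groups with the deposited lengths. That of ULBP3 was 21.7% ± 1.19 untreated and 17.0% ± 0.996 after IFNβ. RAET1G made up 0.416% to 1.21% untreated and 1.84% to 2.45% after IFNβ. With the lengths of release 29 the mean share of ULBP3 would be 42.2% untreated and 35.2% after IFNβ, that of ULBP2 31.3% and 35.6%, and that of MICA 25.7% and 27.4%.

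The genes whose 6 values were most like those of RAET1G, the called member with the largest log2 fold change, were HEXD, GTF2IP3 and H2BC4. RAET1G was below NECTIN2 with a pseudocount of 1 (0.42 against 1.26), with quantile scaling (1.22 against 1.29), without untreated replicate 3 (1.14 against 1.26) and without IFNβ replicate 1 (1.26 against 1.31). The Euclidean distances of HEXD, GTF2IP3 and H2BC4 from RAET1G were 0.533, 0.542 and 0.557, among 11996 genes with a mean of at least 1 FPKM. Distances were taken over the 6 libraries, on log2 values centred on the untreated mean. For NECTIN2, looked up after its values had been seen, the nearest genes were TAPBP (0.0903), ENDOD1 (0.0942) and TRAFD1 (0.107). TAPBP, the peptide-loading chaperone tapasin, went from 14.4 to 36.2 FPKM, a log2 fold change of 1.33 against 1.29 for NECTIN2.

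Other ligands that activate NK cells or hold them to a target were followed in a list of 15 genes. Of the 11 tested, 7 rose, 1 fell and 3 were not called, with a median log2 fold change of 0.399. Over all genes tested, 15.2% rose and 17.5% fell. CLEC2B, which encodes AICL, the ligand of NKp80, went from 0.317 ± 0.105 to 1.27 ± 0.0733 FPKM, a log2 fold change of 1.74 (limma adjusted p = 8.9e-04). ICAM1, a ligand of the integrin LFA-1, went from 0.141 ± 0.0700 to 0.420 ± 0.0466 FPKM, 2.98 times higher (limma adjusted p = 0.017). The NKG2D ligand gene RAET1E, picked out after its values had been seen, had a log2 fold change of 0.75 (limma adjusted p = 0.0026), and RAET1L had too few fragments to be tested. The gene that fell, NECTIN1, also picked out after its values had been seen, is of the same family as NECTIN2 and went from 9.24 ± 0.444 to 5.59 ± 0.402 FPKM, a log2 fold change of -0.72 (limma adjusted p = 2.9e-04).

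Ligands of inhibitory receptors were followed in the same way. In a list of 14 genes, 11 were tested, 8 rose and 1 fell, and 7 of those that rose had a log2 fold change of at least 1, with a median of 2.377 over the 11. Among all genes tested, 15.2% rose, 17.5% fell and 3.49% rose with a log2 fold change of at least 1. LGALS9 and CEACAM1 passed the filter on low values only through the treated libraries. Of the 9 that passed it by their untreated mean, 6 rose, 1 fell and 5 of those that rose had a log2 fold change of at least 1, with a median of 1.202. LGALS9, the galectin bound by TIM-3, went from 0.0950 ± 0.0239 to 16.4 ± 0.592 FPKM. HLA-B went from 2.10 to 46.6 FPKM and HLA-C from 5.30 to 68.6 FPKM, both ligands of killer cell immunoglobulin-like receptors, and CEACAM1 from 0.0612 to 1.70 FPKM. Picked out after their values had been seen, NECTIN3, another nectin, fell, with a log2 fold change of -0.13 (limma adjusted p = 0.017), and NECTIN4, bound by TIGIT, had a log2 fold change of -0.10 (limma adjusted p = 0.39).

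NKG2D ligands can leave the cell surface by proteolytic shedding. In a list of 8 genes of shedding, which holds the inhibitor TIMP3 beside the enzymes, TIMP3, PDIA6 and ADAM9 rose and 5 were not called, all with a log2 fold change under 1 and with a median of 0.032. A rise was called in 15.2% of all genes tested and a fall in 17.5%. MMP14, a membrane-bound metalloproteinase, was at 329 ± 13.2 FPKM untreated and 323 ± 12.8 FPKM after IFNβ (limma adjusted p = 0.67). PDIA6, the disulfide isomerase that acts on MICA before it is cleaved, rose from 73.0 ± 1.05 to 81.2 ± 1.81 FPKM, a log2 fold change of 0.15 (limma adjusted p = 0.0029). TIMP3, an inhibitor of metalloproteinases picked out after its values had been seen, had the largest change of the list, with a log2 fold change of 0.48 (limma adjusted p = 0.0084).

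Of 16 genes known as regulators of the ligand genes, 3 rose and 6 fell, none with a log2 fold change of at least 1 in either direction, and the median was -0.048. The shares of all genes tested were 15.2% higher and 17.5% lower. ATF4, a stress-response factor that drives ULBP1, was at 120.4 to 124.5 FPKM untreated and fell to 111.7 to 114.6 FPKM after IFNβ, with a log2 fold change of -0.11 (limma adjusted p = 0.0062). HSF1, the heat shock factor known to induce the MIC genes, had means of 17.4 ± 0.626 and 19.0 ± 1.20 FPKM and did not pass the test (limma adjusted p = 0.14). STAT3, picked out after its values had been seen, had the largest rise of the list, with a log2 fold change of 0.68 (limma adjusted p = 9.1e-05). E2F1, picked out likewise, had its largest fall, from 20.4 ± 1.40 to 14.9 ± 0.219 FPKM and with a log2 fold change of -0.45 (limma adjusted p = 9.1e-04). The plot of gene lists sets these lists beside the ligand genes, and differences between lists were not tested.

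**Figure D3:**
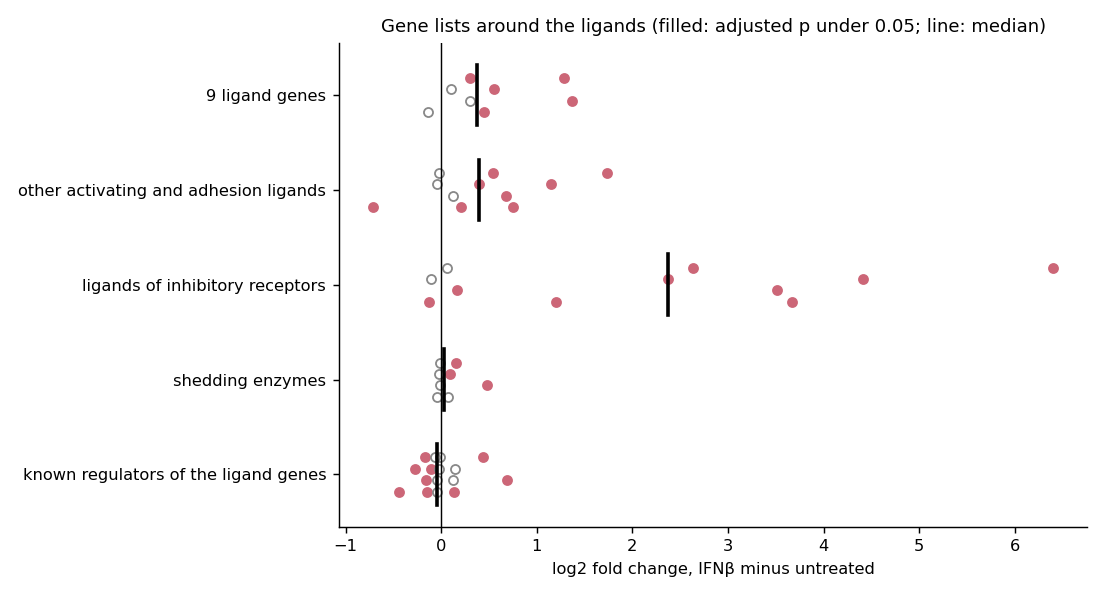
Log2 fold change (IFNβ minus untreated) of each tested gene in 5 lists, filled red where the adjusted p-value is under 0.05, with the list median as a black line. The medians are 0.376 for the ligand genes, 0.399 for other activating and adhesion ligands, 2.377 for ligands of inhibitory receptors (1.202 without LGALS9 and CEACAM1), 0.032 for shedding enzymes (the inhibitor TIMP3 included) and -0.048 for regulators.

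Leaving out each library in turn, other pseudocounts, filters, scalings and models did not change any of the 8 calls at an adjusted p-value of 0.05, except that RAET1G, MICB and NCR3LG1 could not be tested under a filter at 1 FPKM. The log2 fold change of NECTIN2 stayed between 1.26 and 1.31 over 16 alternatives, that of ULBP2 between 0.51 and 0.57, that of MICA between 0.39 and 0.47 and that of PVR between 0.27 and 0.31. RAET1G ranged from 0.42 to 1.91, with a largest adjusted p-value of 0.042 (limma), reached without IFNβ replicate 1. MICB ranged from 0.07 to 0.53 and was not called in any of 15 alternatives, with 0.10 without IFNβ replicate 3 and 0.53 without IFNβ replicate 1. ULBP3 ranged from 0.07 to 0.15 and was not called in any of 16, and its lowest value, 0.065, was that without IFNβ replicate 3. NCR3LG1 ranged from -0.28 to -0.04 and was not called in any of 15, with -0.075 without untreated replicate 3.

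**Figure D4:**
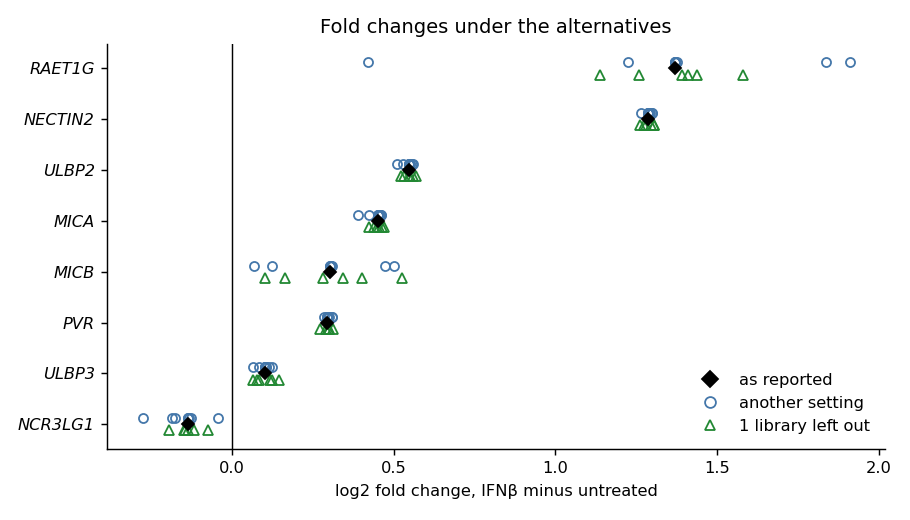
Log2 fold change (IFNβ minus untreated) of the 8 tested ligand genes as reported (black), under other settings (blue circles) and with 1 library left out (green triangles). NECTIN2, ULBP2, MICA and PVR hardly move, whereas RAET1G spreads from 0.42 to 1.91 and MICB from 0.07 to 0.53.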

How the data were processed

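RNA of 6 HT1080 libraries (3 untreated, 3 with IFNβ) was sequenced by the authors after mRNA enrichment. The submitters' processing notes name fastp, HISAT2, StringTie and GRCh38, without versions. The annotation and strandedness are not given in the sources used here. The deposited values are FPKM that the authors computed per Ensembl gene and library, without pooling of replicates. Gene names came from a table in which 42303 IDs have a symbol of their own. Locations and exon lengths are those of GENCODE release 29, which lacks 4436 of the IDs.

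Fragments per library were recovered from the FPKM steps, within 0.01 of a whole number for all 35303 genes above 0. Libraries of a group differed by more than counting error (chi-square per degree of freedom 1.78 to 3.38). limma 3.58.1 (R 4.3.3; lmFit, eBayes with trend) was run on log2(FPKM + 0.1), two-sided, for the genes whose mean reached 0.1 FPKM, with no covariate, after a test on simulated data. Ratios were tested with scipy 1.17.1 and promoters aligned with biopython 1.88. The members and lists were chosen with earlier results of these data known. Named genes were all members, the largest changes past both thresholds in each list (at most 4), or else its 2 most abundant genes, and the genes most like the most changed member. Any other gene was named after its values had been seen. Some lists share genes (HLA-B, HLA-C, RAET1E, RAET1L, CDH1). Alternative pseudocounts, filters, scalings and models, and fits without single libraries, are in the closing section.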

Additional observations from a re-analysis of the deposited data

How the results depend on the processing

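The 5 ligand genes that rose and the 3 not called kept their side of the adjusted p-value threshold of 0.05, and their direction, in each limma alternative run: pseudocounts of 1 and 0.01, no filter or a filter at 1 FPKM (where RAET1G, MICB and NCR3LG1 were not tested), equal totals, median ratio, quantiles, eBayes without trend, limma-voom on recovered fragments, the replicate block and single libraries left out. With single libraries left out, 5 ligand genes rose in each fit and 2 passed the fold threshold. The number past the fold threshold was 2, and 1 with a pseudocount of 1, with the filter at 1 FPKM and with an adjusted p-value under 0.01. In each of these the gene lost was RAET1G, which was not tested in the second. With the replicate number as a block, 5 ligand genes rose, none fell and 2 passed the fold threshold. Same-numbered libraries correlated at 0.053, -0.018 and 0.122 in their deviations from the group means, so the numbers were not taken as pairs, and not every library correlated best with its own number. Over all genes the block gave 2759 higher and 3310 lower calls, against 3153 and 3625. Quantile normalization moved the share of higher genes among calls from 46.5% to 39.2% and the median log2 fold change to -0.06. The gene lengths of GENCODE release 29 were tried after the data had been seen. They moved the untreated mean FPKM of PVR to 74.9, of ULBP3 to 13.3 and of MICA to 8.13. That of NCR3LG1 moved to 0.153 if its fragments are the smallest whole numbers. A filter on the untreated mean alone, also tried after the data had been seen, moved the median log2 fold change of the ligands of inhibitory receptors from 2.377 to 1.202. MICB and RAET1G had at most 30 fragments in any library, ULBP1 had none, and those of NCR3LG1 are known only up to a multiple. The parts of depth and replicate spread in their intervals were not told apart.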

Other observations

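The neighbours of the MIC and ULBP genes on chromosome 6 did not move as blocks. HLA-B, 42.6 kb from MICA, and HLA-C rose with log2 fold changes of 4.41 and 3.67 (limma adjusted p = 1.2e-08 and 3.7e-07), whereas DDX39B on the other side of MICB, picked out after its value had been seen, had 0.01 (limma adjusted p = 0.79). Over all genes tested, 15.2% rose and 17.5% fell. Of 10 genes around the MIC genes 5 were tested, 2 rose and none fell. Of 9 genes around the ULBP genes 7 were tested, RAET1E rose, and NUP43 fell with a log2 fold change of -0.31 (limma adjusted p = 0.0013). PCMT1, the most abundant of these, was at 33.4 ± 0.810 FPKM untreated and 35.5 ± 1.03 FPKM after IFNβ (S.D., n = 3 each) and was not called (limma adjusted p = 0.063).

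An antisense gene within NECTIN2, ENSG00000267282, shares 128 exonic bases with it. It was listed at 0 in the untreated libraries and was at 0.381, 0.564 and 0.325 FPKM after IFNβ. Whether the counting used strand is not given in the sources used here, and the part of NECTIN2 fragments in these values was not tested. HCP5, which shares 62 exonic bases with MICA on the same strand, was at 0.0158 to 0.0522 FPKM untreated and 0.131 to 0.159 FPKM after IFNβ.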
